A study of Mus musculus with 6 samples.

Results

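The miR-15/16 family of microRNAs (miRNAs) was examined in mouse bone-marrow-derived macrophages, together with its relatives miR-195, miR-322 and miR-503. A mature miRNA counted as a member when its name in the deposited read-count tables matched 1 of 8 listed names, and stem-loop references were left out. All 8 names were found among 911 mature references, each as an entry of its own. Of the 8, 6 are 5p arms (mmu-miR-15a-5p, mmu-miR-15b-5p, mmu-miR-16-5p, mmu-miR-195a-5p, mmu-miR-322-5p and mmu-miR-503-5p) and 2 are 3p arms (mmu-miR-15b-3p and mmu-miR-322-3p). The species prefix is dropped from here on.

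Macrophages came from mice lacking apolipoprotein E, a lipoprotein component that clears cholesterol (genotype ApoE-KO, here EKO), and from wild-type mice (WT), with 3 libraries of small RNA per genotype that the series design calls biological replicates. Both genotypes were male and 6 to 12 weeks old. Marrow of both was cultured with 10% serum and given macrophage colony-stimulating factor (M-CSF) at 25 ng/mL every 2 days for 6 days, and no undifferentiated group was analysed here. The labels name neither the strain, the kind of ApoE allele nor how many animals each library holds, and counts of miRNAs do not check the ApoE genotype itself.

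A miRNA is cut from a hairpin whose 2 sides each yield an arm. One arm, the guide, usually stays in the silencing complex, where its seed (bases 2 to 8) pairs with target transcripts, and the other is mostly discarded. The miR-15/16 family is known for holding back the cell cycle and survival, through targets such as the cyclins D1 and E1, the phosphatase Cdc25a and Bcl2, and loss of the human miR-15a/16-1 locus is frequent in chronic lymphocytic leukaemia. Human miR-424, the counterpart of mouse miR-322, has been linked to monocyte and macrophage differentiation. Bulk counts such as these cannot separate fewer cells of a type from less RNA per cell.

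The mature sequences below, from RefSeq (GRCm38.p6), show what ties the family together and where it divides. The seed stands in capitals, and each sequence runs 5′ to 3′.
miR-15a-5p: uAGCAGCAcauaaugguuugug
miR-15b-5p: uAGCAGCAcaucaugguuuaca
miR-16-5p: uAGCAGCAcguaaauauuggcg
miR-195a-5p: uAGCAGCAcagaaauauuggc
miR-322-5p: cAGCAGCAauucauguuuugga
miR-503-5p: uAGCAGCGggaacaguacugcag
miR-15b-3p: cGAAUCAUuauuugcugcucua
miR-322-3p: aAACAUGAagcgcugcaacac
The seed AGCAGCA was shared by 5 members, all of them 5p arms. That of miR-503-5p, AGCAGCG, differed from it in the last base. The seeds of the 3p arms, GAAUCAU and AACAUGA, were unrelated, and each occurred in 1 of the 1679 mature mouse miRNAs in the table, so these 2 members belong to the group by their hairpins and not by their seeds. Beyond the seed the 5p arms diverged. Compared base by base from the 5′ end without gaps, miR-16-5p and miR-195a-5p were identical at 90.5% of 21 positions, the closest of the 15 pairs. By the same measure miR-15a-5p and miR-15b-5p were identical at 81.8% of 22 positions, while miR-503-5p and miR-15a-5p were identical at 50.0%. No read of any member was shared with another reference, since the count adjusted for reads matching several references equalled the total read count for all 8.

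The members came from 4 loci in that RefSeq assembly, which is not the mm9 build of the submitters' processing notes. The hairpins of miR-15a and miR-16-1 lay together on the minus strand of chromosome 14, with miR-15a-5p at chr14:61632075-61632096, in the non-coding gene Dleu2. In the GENCODE M21 annotation Mir15a was intronic and Mir16-1 overlapped an annotated exon of that gene. The hairpins of miR-15b and miR-16-2 lay 66 bases apart in an intron of Smc4, a condensin subunit gene, with miR-15b-5p at chr3:69009775-69009796 on the plus strand. Mature miR-16-5p has the same letters at both loci, so its count cannot be assigned to either. Mir195a, with miR-195a-5p at chr11:70235062-70235082 on the plus strand, lay 241 bases from Mir497. Mir503 and Mir322 lay 200 bases apart on the minus strand of chromosome X, with miR-322-5p at chrX:53054306-53054327, and no annotated host gene spanned them on that strand.

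Depth on mature references was 34651516, 39532548 and 37084444 reads for EKO, against 38440296, 41331600 and 40913120 reads for WT. Levels are given as CPM, the adjusted reads of a miRNA for each 1e+06 reads of its library. Mature miRNAs are of nearly equal length and were not scaled by it, but ligation and amplification favour some sequences, and levels of different miRNAs in 1 library are therefore only loosely comparable. The 7 listed myeloid miRNAs summed to 143029 to 171233 CPM in EKO and 215752 to 228577 CPM in WT, nearly all of it miR-21a-5p. By fitted value 5 of the 7 were lower in EKO and 2 higher. The 2 were miR-223-5p (2761 ± 107 CPM in EKO and 2042 ± 106 CPM in WT) and miR-146a-5p, nearly level (2197 ± 493 CPM in EKO and 2119 ± 189 CPM in WT; SD, n = 3 each). The opposite arm miR-223-3p was lower in EKO (257 ± 27.6 CPM) than in WT (405 ± 99.6 CPM), as was miR-142a-5p (183 ± 48.8 and 291 ± 53.4 CPM). For 4 of the 7 the EKO and WT libraries did not overlap, where 29.6% of all tested miRNAs did not. An adjusted p under 0.05 was reached by 0 of the 7 (edgeR). The macrophage miRNA miR-511-3p averaged only 0.225 CPM in EKO and 0.781 CPM in WT.

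The family took a small part of the reads on mature miRNAs. Its 8 members together took 431, 612 and 879 CPM in the EKO libraries, against 871, 816 and 1097 CPM in the WT libraries. EKO replicate 1 was the lowest of the 6 and EKO replicate 3 lay among the WT libraries. Within the group, miR-16-5p, the founding member, took 46.5% ± 1.48 of the members' reads in EKO, against 49.8% ± 2.57 in WT (SD, n = 3 each). miR-322-3p took 19.8% ± 3.39 in EKO and 19.7% ± 2.24 in WT, and miR-503-5p 16.6% ± 2.26 in EKO and 13.8% ± 2.78 in WT.

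By mean level over the 6 libraries the order was miR-16-5p (380.1 CPM), miR-322-3p (157), miR-503-5p (115), miR-15b-5p (69.2), miR-15b-3p (45.7), miR-322-5p (10.9), miR-15a-5p (7.11) and miR-195a-5p (0.335). miR-16-5p stood above miR-322-3p in every library, with ranges that did not overlap. The ranges of miR-322-3p and miR-503-5p overlapped, and miR-322-3p was the higher in 5 of 6 libraries. Those of miR-322-5p and miR-15a-5p also overlapped, with miR-322-5p the higher in 4 of 6. In rank among all mature references miR-16-5p stood at 79 and miR-15a-5p at 287.

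**Figure D1:**
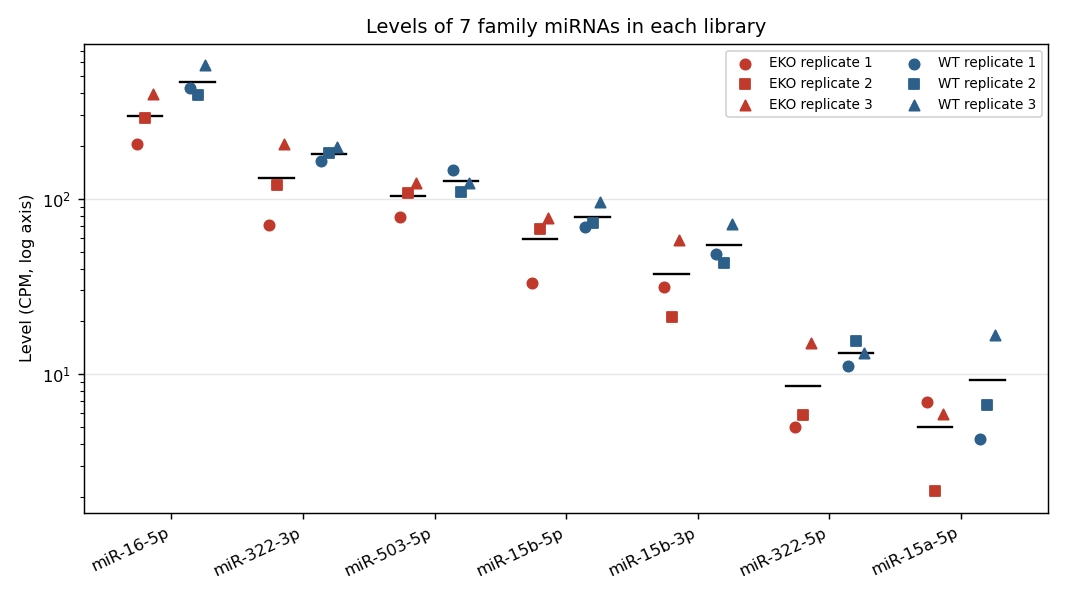
Level of 7 family miRNAs in each library (CPM, log axis), EKO left of WT within each miRNA, with 1 point per library and a bar at the mean of 3. The family spans from about 577 CPM for miR-16-5p to 2.15 CPM for miR-15a-5p, and for every miRNA the EKO points overlap the WT points; miR-195a-5p, with 0 reads in 4 libraries, is not drawn.

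The study set EKO beside WT macrophages to find miRNAs whose expression differs with ApoE deficiency. Every tested member had a lower fitted value in EKO, with log2 fold changes between -0.27 (miR-503-5p) and -0.82 (miR-15a-5p). None of these differences passed the test across all miRNAs. Of the 8 members, 7 passed the low-count filter and entered the edgeR quasi-likelihood fit (miR-195a-5p did not). Among these, 0 of 7 had an adjusted p under 0.05, where 0% of the 575 miRNAs tested did. One member, miR-16-5p, had an unadjusted p under 0.05, where 13% of all tested miRNAs did so on the lower side and 8.35% on the higher side. On the same 7 members DESeq2 and limma-voom also made 0 calls, where they called 8.52% and 4% of all tested miRNAs lower. The log2 fold change was below 0 for 7 of 7 members, with a median of -0.52, and for 58.3% of all tested miRNAs, with a median of -0.16. For 0 of 7 members were the EKO and WT libraries fully separated, against 29.6% of all tested miRNAs (17.7% with EKO below WT and 11.8% with EKO above).

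The calls moved with the low-count filter and with 1 library. Among the 251 miRNAs averaging at least 10 CPM, which include 6 members, edgeR called 0 members and 12.7% of miRNAs lower in EKO. With this filter DESeq2 called 1 member, miR-16-5p, and 15.9% of miRNAs lower. Without EKO replicate 3, edgeR with this filter called 4 members lower, where 21.5% of miRNAs were. These were miR-16-5p (log2 fold change -0.81), miR-322-3p (-0.83), miR-15b-3p (-0.93) and miR-322-5p (-1.20).

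Among the founding pair of clusters, miR-16-5p represses cyclins and Bcl2 and is the most abundant 5p arm of the group. It stood at 206, 288 and 394 CPM in EKO, against 428, 388 and 577 CPM in WT. Its highest EKO library lay just above its lowest WT library, and the other EKO libraries lay below all of WT. Means were 296 ± 94.5 CPM in EKO and 464 ± 99.6 CPM in WT (SD, n = 3 each). edgeR put EKO over WT at -0.63 ± 0.22 in log2 (SE), with an adjusted p of 0.154. Without EKO replicate 3 it was -0.86 and passed (adjusted p = 0.0477, edgeR, where 4.57% of 634 miRNAs were called lower). Without WT replicate 3 it was -0.46 (adjusted p = 0.461, edgeR).

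miR-15b-5p, its partner in the Smc4 intron, stood at 32.9, 67.2 and 77.8 CPM in EKO, against 68.7, 72.3 and 96.1 CPM in WT. EKO replicate 1 was less than the rest, while EKO replicates 2 and 3 lay within or near the WT range. Its fitted log2 fold change of -0.40 ± 0.30 (SE) shrank to -0.12 without EKO replicate 1. The opposite arm miR-15b-3p stood at 31.6, 21.2 and 58.5 CPM in EKO, against 48.3, 42.9 and 71.9 CPM in WT, with a log2 fold change of -0.52 ± 0.37 (SE). Here EKO replicate 2 was the lowest library, not EKO replicate 1. In both of these libraries each arm lay below every WT library. Without EKO replicate 2 the miR-15b-3p value was -0.22, and without EKO replicate 3 it was -0.97. A correction for GC content, among miRNAs averaging at least 10 CPM, moved miR-15b-5p to -0.16, against -0.36 without the correction, and miR-15b-3p to -0.19, against -0.50.

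miR-15a-5p, from the Dleu2 locus, was scarce, at 6.95, 2.15 and 5.93 CPM in EKO, against 4.27, 6.63 and 16.7 CPM in WT. WT replicate 3 alone carried the higher WT mean. Its fitted log2 fold change, -0.82 ± 0.71 (SE), became -0.10 without that library. Its 85 reads in EKO replicate 2 came from 3 distinct read sequences, and its 685 reads in WT replicate 3 from 46. Since reads carried no usable molecular barcodes, copies made by PCR could not be told from captured molecules.

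miR-195a-5p, which in mouse heart restrains cardiomyocyte proliferation after birth, was at the limit of detection. It had 0 reads in all 3 EKO libraries, against 36, 0 and 44 reads in the WT libraries. The EKO total of 111268508 reads allows up to 0.0270 CPM for a count of 0, for counting error only. The WT reads came from 4 and 5 distinct sequences, and 1 WT library had none, so no difference between genotypes can be read from it.

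The chromosome X pair comprised miR-322, whose human counterpart is miR-424, and miR-503, both known to slow the cell cycle through Cdc25a. miR-322-3p stood at 71.2, 119.8 and 205 CPM in EKO, against 164, 182 and 198 CPM in WT. The WT libraries were close together, while the EKO libraries ran from less than any WT library to above all of them. Fitted by edgeR, EKO over WT was -0.45 ± 0.32 in log2 (SE), with an adjusted p of 0.552. This value was -0.16 without EKO replicate 1 and -0.89 without EKO replicate 3. miR-322-5p stood at 4.99, 5.82 and 15.0 CPM in EKO, against 11.2, 15.4 and 13.2 CPM in WT, with EKO replicate 3 inside the WT range. Its log2 fold change was -0.62 ± 0.50 (SE). It was -1.25 without EKO replicate 3 and -0.36 without EKO replicate 1. The miR-322-5p reads came from only 8, 7 and 25 distinct read sequences in EKO, against 17, 23 and 21 in WT. miR-503-5p stood at 78.4, 108 and 123 CPM in EKO, against 146, 109 and 123 CPM in WT, a log2 fold change of -0.27 ± 0.20 (SE). Without EKO replicate 1 it was -0.12, and without WT replicate 1 it was -0.14. With the GC correction it was -0.41, against -0.23 under the same filter without it, and miR-15b-5p then had the value nearest 0 of the 6 members fitted.

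**Figure D2:**
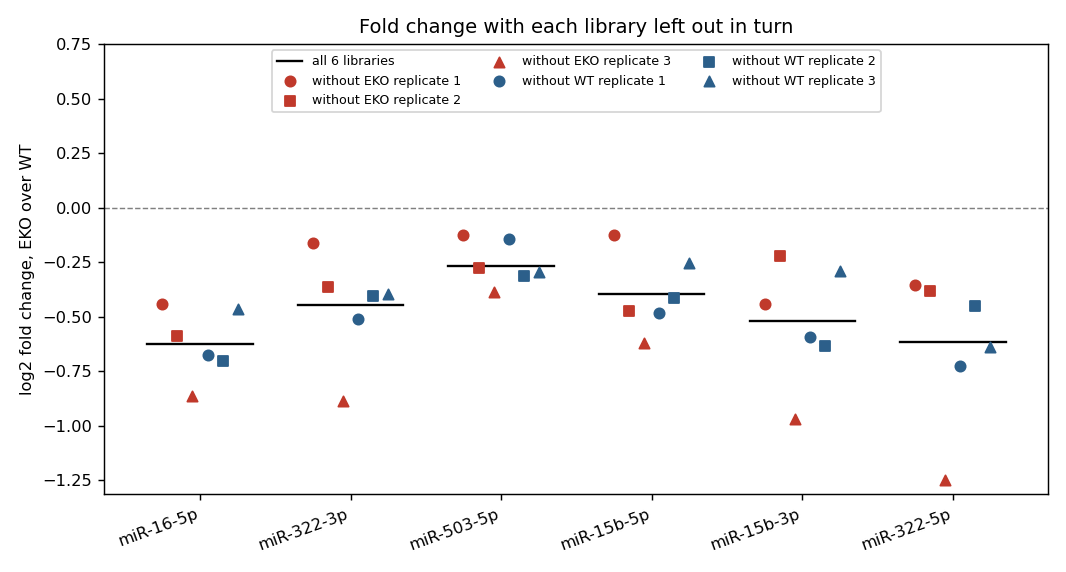
The log2 fold change of EKO over WT for 6 members, fitted on all 6 libraries (black bar) and with each library left out in turn (1 point per fit, red for an EKO and blue for a WT library). All values lie below 0; leaving out EKO replicate 3 gives the most negative value for each of the 6 (miR-322-5p at -1.25), and for 5 of them a fit without EKO replicate 1 gives the value nearest 0.

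Most members varied more among EKO than among WT libraries. The coefficient of variation was larger in EKO for 6 of 7 tested members, miR-15a-5p being the exception, as it was for 72.7% of the tested miRNAs with a value in both genotypes. For miR-322-3p it was 51.2% in EKO and 9.39% in WT. EKO replicate 3 was the highest EKO library for 6 of 7 members, against 42.1% of all tested miRNAs, and WT replicate 3 the highest WT library for 5 of 7, against 42.3%. Members of 1 library share its handling, so these counts are not independent. The number of distinct read sequences ran the same way among EKO libraries, at 48275, 54098 and 57650, and was 62650, 62572 and 67508 in WT; its part in the levels was not tested. Among markers of other cells, the 4 listed lymphoid miRNAs summed to 489 to 595 CPM in EKO and 684 to 801 CPM in WT, nearly all of it miR-181a-5p and miR-181b-5p. The lymphocyte miRNA miR-150-5p averaged 3.63 CPM in EKO and 5.21 CPM in WT, and its libraries overlapped. The 7 stromal miRNAs summed to 3859 to 4077 CPM in EKO and 4005 to 4140 CPM in WT, a sum made up mostly of miR-140-3p. Of the 7, 4 had every EKO library below every WT library, where 17.7% of all tested miRNAs did. These were miR-143-3p (88.7 ± 22.8 CPM in EKO and 187 ± 22.9 CPM in WT), miR-140-5p (175 ± 59.6 CPM in EKO and 324 ± 70.0 CPM in WT), miR-199a-5p (0.598 ± 0.844 CPM in EKO and 3.76 ± 0.431 CPM in WT) and the joint entry of miR-199a-3p and miR-199b-3p (1.99 ± 1.86 CPM in EKO and 10.3 ± 3.45 CPM in WT; SD, n = 3 each). The median log2 fold change of the 6 stromal miRNAs tested was -0.95, and 0 of 6 passed (edgeR, with 2 at an unadjusted p under 0.05). The fold change was below 0 for 4 and above 0 for 2, miR-140-3p (0.08 ± 0.10, SE) and miR-214-3p (3.55 ± 2.61, SE). The scarce miR-214-3p averaged 1.19 CPM in EKO and 0.104 CPM in WT, and its libraries overlapped. miR-145a-5p had no reads in any EKO library, and reads in 1 WT library. Erythroid miRNAs, with reads for 3 of 5 and none for either miR-144 arm, summed to 117 to 145 CPM in EKO and 127 to 160 CPM in WT, nearly all of it the joint miR-486 entry. The red-cell miRNA miR-451a stood at 5.92, 5.31 and 1.29 CPM in EKO, against 0, 0 and 0.587 CPM in WT (adjusted p = 0.26, edgeR). Every EKO library lay above every WT library, where 11.8% of all tested miRNAs did so. Its reads came from only 6, 5 and 1 distinct read sequences in EKO and 2 in WT replicate 3. Both endothelial miRNAs summed to 64.6 to 73.1 CPM in EKO and 76.3 to 79.9 CPM in WT. Muscle miRNAs, with no reads of miR-133a-3p, summed to 2.83 to 25.3 CPM in EKO and 0.653 to 3.25 CPM in WT, nearly all of it miR-1a-3p. The part of any of these cell types in the members' levels was not tested.

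Of the 5 other arms of the same hairpins all 5 were tested and 0 passed (edgeR, with 0 at an unadjusted p under 0.05), with fitted log2 fold changes below 0 for 1 and above 0 for 4. For 3 of them, miR-15a-3p, miR-16-1-3p and miR-16-2-3p, the sign depended on the scaling or tool. The sequence of miR-16-1-3p, the arm opposite miR-16-5p in the Dleu2 hairpin, and those of 2 further 3p arms are printed because their reads set the arm usage described here, again with bases 2 to 8 in capitals.
miR-16-1-3p: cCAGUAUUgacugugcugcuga
miR-16-2-3p: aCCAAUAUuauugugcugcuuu
miR-195a-3p: cCAAUAUUggcugugcugcucc
The usually discarded arm miR-16-1-3p stood at 495, 512 and 568 CPM in EKO, against 476, 578 and 526 CPM in WT. It was thus nearly level across all 6 libraries, with means of 525 ± 38.0 CPM in EKO and 527 ± 51.0 CPM in WT (SD, n = 3 each). Its fitted log2 fold change of 0.02 ± 0.13 (SE) was within the spread between replicates, and ran from -0.00 with total counts only to 0.10 with DESeq2 size factors. Its reads amounted to 2.41, 1.78 and 1.44 times those of miR-16-5p in EKO, against 1.11, 1.49 and 0.912 times in WT. The ratio was above 1 in 5 of 6 libraries, and the genotypes overlapped in it.

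Of the 2 hairpins that yield miR-16-5p, the Dleu2 one gave far more 3p reads. miR-16-1-3p outnumbered miR-16-2-3p 157, 43.7 and 309.8 times in EKO, against 100.1, 117 and 128 times in WT. The WT ratios were close together and the EKO ratios scattered, and miR-16-2-3p itself ranged from 1.83 to 11.7 CPM in EKO and from 4.11 to 4.94 CPM in WT. How much of miR-16-5p each locus made was not measured by this, because a discarded arm can differ in stability and in capture. For miR-195a the 3p arm was also the abundant one, at 29.4, 41.4 and 17.9 CPM in EKO, against 20.5, 20.5 and 21.4 CPM in WT, while its 5p arm was nearly absent. For miR-195a-3p edgeR gave 0.54 ± 0.34 in log2 (SE), with an adjusted p of 0.471.

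For miR-15b, miR-322 and miR-503 the more abundant arm was the same in every library. The arm ratio was tested between genotypes for miR-15b and miR-322, and neither difference was beyond the spread between libraries. For miR-322 the 3p arm outnumbered the 5p arm in every library, 14.3, 20.6 and 13.6 times in EKO, against 14.7, 11.8 and 15.0 times in WT. The mean log2 ratio of 5p to 3p was -3.99 ± 0.326 in EKO, against -3.78 ± 0.196 in WT (SD, n = 3 each), a difference of -0.21 (two-sided exact permutation p = 0.6). For miR-15b the 5p arm was ahead, 1.04, 3.17 and 1.33 times in EKO, against 1.42, 1.68 and 1.34 times in WT, with a difference in log2 ratio of 0.15 (two-sided exact permutation p = 1). That difference was carried by EKO replicate 2 and turned to -0.33 without it. The design of 3 against 3 libraries cannot give a p below 0.1. miR-503 kept its 5p arm ahead, 5.12, 2.44 and 3.55 times in EKO, against 3.07, 3.11 and 2.81 times in WT, where miR-503-3p averaged 31.4 ± 14.8 CPM in EKO and 42.1 ± 6.40 CPM in WT (SD, n = 3 each).

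**Figure D3:**
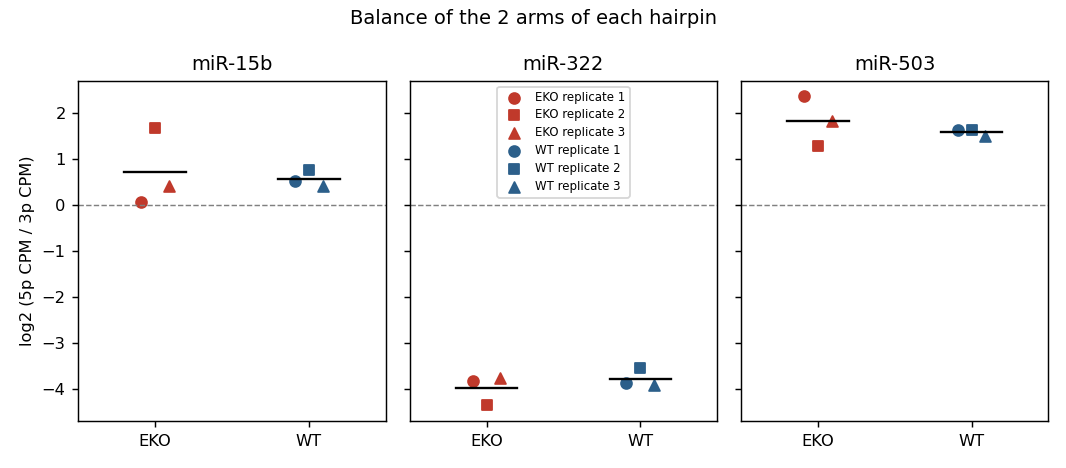
Log2 ratio of 5p to 3p reads for the miR-15b, miR-322 and miR-503 hairpins in each library, EKO left of WT, with 1 point per library, a bar at the mean of 3 and a dashed line at equal arms. miR-322 lies near -4 in both genotypes, miR-503 lies above the line in all 6 libraries, and miR-15b close to the line except EKO replicate 2.

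The miRNAs encoded beside the members did not share 1 direction. Of 9 listed cluster neighbours, from the miR-497a/195a and chromosome X clusters, 7 were tested and 0 passed (edgeR, with 0 at an unadjusted p under 0.05 and 0% of all miRNAs called). Their log2 fold changes were below 0 for 4 and above 0 for 3, and these directions held under each scaling of the libraries tried. miR-351-5p, which carries the seed of the miR-125 family, averaged 451 ± 54.6 CPM in EKO and 555 ± 98.9 CPM in WT (SD over 3), where edgeR gave -0.27 ± 0.14 in log2 (SE). miR-450a-5p averaged 19.7 ± 6.66 CPM in EKO and 30.3 ± 4.34 CPM in WT. miR-542-3p, a regulator of survivin in human cells, averaged 56.4 ± 11.4 CPM in EKO and 42.3 ± 5.48 CPM in WT, with 0.45 ± 0.24 in log2 (SE). miR-450b-5p averaged 25.6 ± 4.54 CPM in EKO and 21.5 ± 1.40 CPM in WT.

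Related seeds were sought by the letters AGCAGC within bases 1 to 8 on the mature strand, which 13 of 1679 mature miRNAs (0.774%) held, 6 of them members. Of the other 7, reads were found for 3. These included miR-103-3p and miR-107-3p, which start with these letters at base 1 and so pair with targets 1 base out of step with the miR-15/16 seed. miR-103-3p averaged 596 ± 108 CPM in EKO and 1000.3 ± 239.7 CPM in WT, which edgeR put at -0.72 ± 0.17 in log2 (SE), with an adjusted p of 0.0786. miR-107-3p averaged 37.4 ± 3.16 CPM in EKO and 67.7 ± 25.4 CPM in WT, which edgeR put at -0.82 ± 0.27 in log2 (SE), with an adjusted p of 0.122. Neither passed in that fit, and for both every EKO library lay below every WT library. miR-103-3p passed with DESeq2 (adjusted p = 0.00603), with limma-voom (adjusted p = 0.0484) and with edgeR on miRNAs averaging at least 10 CPM (adjusted p = 0.0284). For miR-107-3p the adjusted p was 0.0687 with DESeq2, 0.111 with limma-voom and 0.0601 with edgeR under that filter. miR-497a-5p, which has the family seed, had reads in 1 EKO library and in all 3 WT libraries, at no more than 2.13 CPM.

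**Figure D4:**
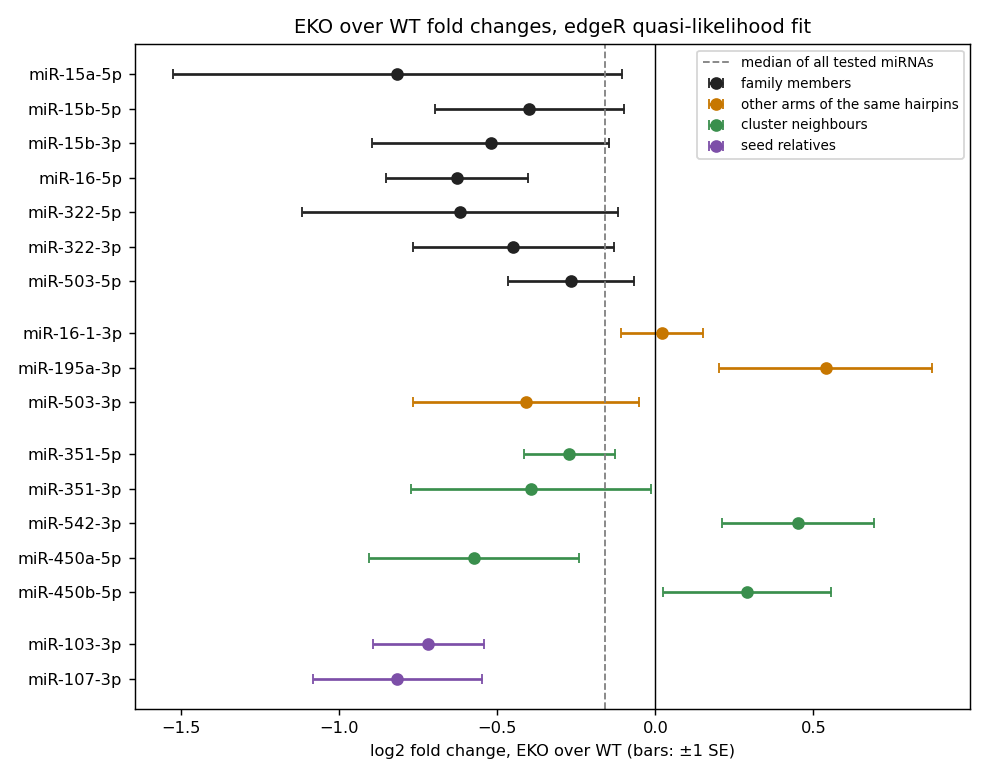
Log2 fold change of EKO over WT with ±1 SE (edgeR quasi-likelihood fit) for 7 members and for the other arms, cluster neighbours and seed relatives averaging at least 10 CPM, with a dashed line at the median of all tested miRNAs (-0.16). All 7 members lie left of 0, miR-16-1-3p lies at 0.02 (-0.00 with total counts only), and miR-195a-3p, miR-542-3p and miR-450b-5p lie right of 0.

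Likeness across libraries was measured as the root-mean-square difference of log2(CPM + 1) over the 6 libraries, after each miRNA was centred on its own mean, among 245 non-members averaging at least 10 CPM. The closest to miR-16-5p was miR-26a-5p, at 0.06, where the median candidate was at 0.47. miR-26a-5p stood at 3667, 4859 and 6746 CPM in EKO, against 7456, 7419 and 9734 CPM in WT, the same order of libraries within EKO and the same highest library in WT. Next came miR-186-5p, at 0.09, and let-7g-5p, at 0.10. By the same measure the nearest family member, miR-15b-5p, was at 0.19 from miR-16-5p. The closest candidates were picked from 245 miRNAs and the nearest member from far fewer. The remaining members lay at up to 0.34, nearer than the median candidate, except miR-15a-5p at 0.65 and miR-195a-5p at 0.36. For miR-195a-5p, at no more than 1.08 CPM in any library, the measure cannot be read as likeness. So few reads leave it nearly flat after 1 is added, and candidates averaged at least 10 CPM. For miR-322-5p the closest were miR-21b, miR-28a-5p and the joint entry of let-7a-1-3p and let-7c-2-3p, at 0.20, 0.20 and 0.22, and its own opposite arm miR-322-3p was at 0.21. The points share library and depth.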

How the data were processed

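Small RNA was sequenced from 3 EKO and 3 WT libraries, made with an NEB small RNA kit from RNeasy-purified total RNA, per the labels' protocols. Such columns can lose small RNA. The submitters' processing notes name mm9; no aligner or counter is given in the sources used here. Per the file headers, the authors deposited counts of distinct sequences and of total reads, and an estimated count that divides multiply matching reads. Barcode counts were 0 throughout. The deposited estimated counts were rounded; missing references were taken as 0.

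edgeR 4.0.16 in R 4.3.3 was used, with TMM scaling, filterByExpr, the quasi-likelihood test on genotype and Benjamini-Hochberg adjustment over all tested miRNAs, at 0.05. CPM is not TMM-scaled, and the SE is the size of the log2 fold change divided by the square root of F. The code was tested on simulated data. Alternatives included DESeq2 1.42.0, limma 3.58.1, other scalings and filters, GC correction, a replicate block and leaving out libraries. All 8 members were named, with companion lists and a likeness rule; members and lists were chosen with earlier results of these data known. SDs and SEs include the spread between libraries, while the limit given for 0 reads covers counting error only.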

Additional observations from a re-analysis of the deposited data

How the results depend on the processing

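All 7 tested members kept a log2 fold change below 0 under every alternative that tested them. Where the edgeR fit on all libraries called 0 miRNAs and 0 members, DESeq2 called 92 miRNAs (11 had no adjusted p), limma-voom 32, and edgeR 52 with no filter, 43 when each library had to hold at least 10 reads and 59 where the mean had to reach 10 CPM. With that last filter DESeq2 called 84, limma-voom 56 and the GC correction 46 (88% of 251 miRNAs had a GC value). Leaving out each library gave 0 to 45 called miRNAs with the standard filter, the 45 without EKO replicate 3, and 0 to 92 with the CPM filter (the 92 again without EKO replicate 3, then 12 when EKO replicate 1 and 1 when EKO replicate 2 was left out). It gave 0 to 4 called members, all lower in EKO and all without EKO replicate 3. With the standard filter this was 1 of 8 tested members (4.57% of miRNAs called lower). With the CPM filter it was 4 of 6 (21.5% called lower), namely miR-16-5p, miR-322-3p, miR-322-5p and miR-15b-3p. With the CPM filter DESeq2 called 1 member, miR-16-5p (adjusted p = 0.0474, with 15.9% of miRNAs called lower); over all 27 alternatives its adjusted p ran from 7.43e-05 to 0.461. The GC correction moved miR-15b-5p to -0.16, against -0.36 under the same filter without it, miR-15b-3p to -0.19, against -0.50, and miR-503-5p to -0.41, against -0.23; the cause was not tested. Correlations of deviations were 0.18, -0.07 and 0.33 for libraries with the same replicate number, and -0.42 to 0.29 for other numbers. With 3 libraries per genotype these cannot settle whether replicate numbers pair libraries. A replicate block gave 62 called miRNAs and 1 called member (miR-16-5p, with 6.26% of miRNAs called lower), and 95 and 2 (miR-16-5p and miR-322-3p, with 21.5% called lower) with the CPM filter; the arm differences with it were 0.15 and -0.21. Leaving out each library gave -0.33 to 0.48 for the miR-15b arm difference, negative without EKO replicate 2 alone, and -0.32 to -0.02 for miR-322. Few distinct read sequences limit what can be said of miR-15a-5p, miR-195a-5p and miR-322-5p, and so of the miR-322 arm ratio.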
